A study of Mus musculus with 24 samples.

Results

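Early lymphoid priming is the low-level expression of lymphoid genes in haematopoietic cells that still have several fates open. The 9 genes described here are markers and regulators of it: Flt3, Notch1, Il7r, Rag1, Dntt, Ikzf1, Satb1, Ccr9 and Tcf3. They were taken by gene name from a table of 38215 genes, in which each name had 1 row, and were read in all 24 libraries. Of the 9, 8 passed the filter on low counts, and Il7r did not.

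In the bone marrow, long-term haematopoietic stem cells (LT-HSCs) give rise to lymphoid-primed progenitors, which raise the receptor Flt3 and turn on a first set of lymphoid genes before commitment to the B or T lineage. The transcription factors Ikzf1 and Tcf3 are needed for that programme. Satb1 and Notch1 act upstream of and within the T lineage, and Il7r, Rag1, Dntt and Ccr9 mark lymphoid progenitors. Type I interferon drives dormant stem cells into cycle and changes the surface markers by which stem and progenitor cells are sorted.

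The libraries were made from polyadenylated RNA of LT-HSCs sorted as lineage-negative Sca1+ cKit+ CD150+ CD48- cells. All came from lethally irradiated C57BL/6J recipients of equal parts of Jak2V617F and wild-type marrow, so that cells of both genotypes shared each mouse. Jak2V617F cells (CD45.2) carried 1 copy of a floxed Jak2 allele with the V617F change, which makes this cytokine-signalling kinase constantly active, together with Tg(E2A-cre), and wild-type (WT) cells (CD45.1) were Jak2+/+ cells of the congenic C57Bl/6N Ptprca strain. The labels do not describe the transgene's promoter; E2A is also a name for the products of Tcf3. Genotype therefore cannot be told apart from the CD45 allele, the donor, the transgene and, by the sex-linked genes given below, the sex of the donor cells. Mice received pegylated interferon alpha (pegIFN), 600 ng a week in 5 doses over 4 weeks, or its vehicle of saline with albumin for the same time, and LT-HSCs were sorted 48 hours past the final injection. There were 4 groups of 6 libraries: WT pegIFN, WT vehicle, Jak2V617F pegIFN and Jak2V617F vehicle.

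Total counts per library were between 24.6 and 39.7 M, and levels are given below as CPM, the edgeR counts scaled to library sizes with TMM factors. By the numbers in the library names, the 24 libraries came from 12 mice, with 1 library of each genotype from every mouse. Sex-linked genes ran with genotype: summed Y-linked genes were between 149 and 243 CPM in Jak2V617F libraries, and between 2.17 and 75.7 CPM in all WT libraries but vehicle replicate 4, at 250 CPM. That library had 600 CPM of Xist, against 1937 to 3310 CPM in the other WT vehicle libraries, and Jak2V617F pegIFN replicate 1 had 654 CPM, against 40.8 to 110 CPM in the rest of its group. WT vehicle replicate 4 thus had the Y-linked level of Jak2V617F libraries, WT in its name is the label only, and results that change without these libraries are marked. All 8 interferon-response genes examined rose in both genotypes, which checks the treatment labels. Of 10 LT-HSC marker genes, 9 fell in pegIFN libraries of both genotypes. Of 5 genes of the sorting gate, 2 rose, 2 fell and 1 was not called in each genotype. Cd48 rose by a log2 fold change of 1.76 ± 0.19 (SE) in WT, and Ly6a (Sca1) by 2.31 ± 0.20 in Jak2V617F cells. Kit fell by 0.87 ± 0.14 in both genotypes, and Ptprc (CD45) by 0.66 ± 0.11 in WT and 0.52 ± 0.11 in Jak2V617F cells. In bulk libraries, fewer cells that express a gene and less RNA of it in each cell cannot be told apart, here and in every result below.

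The promoters of the 5 abundant genes are shown because these genes moved under pegIFN, and an interferon-stimulated response element is the motif through which type I interferon signalling is best known to act. Each is 300 bases from the RefSeq table for GRCm38.p6, from 250 bases before a transcription start to 50 after it, 5′ to 3′ on the gene's strand. Capitals mark the E-box (CANNTG, bound by Tcf3), the Ikaros core (GGGAA, bound by Ikzf1) and the gamma-activated site (TTCNNNGAA), on either strand. The interferon-stimulated response element was searched as GAAANNGAAA and the Rbpj core, the site of Notch signalling, as TGGGAA, which contains the Ikaros core.
Flt3, chr5:147400440-147400739, minus strand: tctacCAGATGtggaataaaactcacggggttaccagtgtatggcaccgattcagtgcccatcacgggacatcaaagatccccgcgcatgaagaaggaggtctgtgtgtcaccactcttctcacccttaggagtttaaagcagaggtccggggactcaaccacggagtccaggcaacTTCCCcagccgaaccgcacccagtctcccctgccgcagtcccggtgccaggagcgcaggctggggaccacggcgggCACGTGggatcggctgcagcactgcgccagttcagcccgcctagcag
Notch1, chr2:26503773-26504072, minus strand: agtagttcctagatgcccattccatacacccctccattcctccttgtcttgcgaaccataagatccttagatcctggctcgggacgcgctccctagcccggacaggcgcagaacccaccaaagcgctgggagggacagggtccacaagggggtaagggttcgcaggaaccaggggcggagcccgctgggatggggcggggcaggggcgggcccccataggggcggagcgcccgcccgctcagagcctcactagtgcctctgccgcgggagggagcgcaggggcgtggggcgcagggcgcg
Satb1, chr17:51833241-51833540, minus strand: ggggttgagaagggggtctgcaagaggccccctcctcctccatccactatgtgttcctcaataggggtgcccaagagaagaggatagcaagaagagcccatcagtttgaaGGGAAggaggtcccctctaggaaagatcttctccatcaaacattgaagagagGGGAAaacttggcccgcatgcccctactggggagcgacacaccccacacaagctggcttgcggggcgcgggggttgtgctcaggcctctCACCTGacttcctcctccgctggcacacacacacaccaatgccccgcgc
Ikzf1, chr11:11689927-11690226, plus strand: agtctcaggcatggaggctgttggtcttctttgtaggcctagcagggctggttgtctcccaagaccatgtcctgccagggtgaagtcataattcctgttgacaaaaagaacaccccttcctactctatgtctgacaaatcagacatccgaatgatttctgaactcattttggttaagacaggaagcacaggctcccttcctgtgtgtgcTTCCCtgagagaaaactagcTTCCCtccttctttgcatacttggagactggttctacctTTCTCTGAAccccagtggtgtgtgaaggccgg
Tcf3, chr10:80433586-80433885, minus strand: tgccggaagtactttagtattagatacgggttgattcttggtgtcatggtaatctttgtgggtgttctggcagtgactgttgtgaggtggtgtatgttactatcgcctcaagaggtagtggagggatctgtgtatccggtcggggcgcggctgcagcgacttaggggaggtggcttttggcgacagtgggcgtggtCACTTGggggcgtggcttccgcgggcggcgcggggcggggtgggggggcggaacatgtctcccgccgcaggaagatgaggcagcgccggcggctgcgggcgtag

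All 9 genes matched the table, with 14 promoters. None of the 14 held the letters of the interferon-stimulated response element, which 3.44% of 32851 promoters in the table held. The Rbpj core was in none of the 5 windows shown and in 25.6% of all promoters. Outside these windows, it was in the Rag1 promoter and in other promoters of Satb1. The Flt3 window held 2 E-boxes and 1 Ikaros core, the Satb1 window 1 E-box and 2 Ikaros cores, and the Tcf3 window 1 E-box. An E-box was present in 72.3% and an Ikaros core in 62.7% of all promoters, so their presence does not set these genes apart. The Notch1 window held none of the motifs. The Ikzf1 window, the second of 2 promoters listed for the gene, held 2 Ikaros cores and a gamma-activated site. Such a site is held by 8.3% of all promoters. The other Ikzf1 promoter, further upstream and not shown, held none of the motifs. Satb1 has 5 promoters in the table, and the one at the gene's outermost start is shown. A match of letters does not show that a factor binds there.

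Levels per kilobase of the principal transcript spanned a wide range. In WT vehicle LT-HSCs the order was Tcf3 (66.7 ± 3.98 CPM per kilobase, SD, n = 6), Ikzf1 (between 40.9 and 46.5), Flt3 (9.04 ± 4.23), Notch1 (4.61 ± 0.392), Satb1 (0.977 ± 0.362), Dntt (0.25 ± 0.242), Rag1 (0.125 ± 0.121), Ccr9 (0.0635 ± 0.0124) and Il7r (0.0491 ± 0.0217). Neighbours in that order overlapped over libraries from Flt3 to Notch1 and from Satb1 down to Il7r. Tcf3 and Ikzf1 did not overlap each other or any other gene, and neither did Notch1 and Satb1. In WT pegIFN cells Flt3, at 1.56 ± 0.266 CPM per kilobase, stood below Notch1, at 2.21 ± 0.221, again with overlapping libraries. Both broadly expressed transcription factors, Tcf3 and Ikzf1, were thus far above the receptors. The recombination enzymes Rag1 and Dntt and the receptors Ccr9 and Il7r were near the limit of counting.

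In WT LT-HSCs, pegIFN lowered Flt3, Notch1 and Satb1 and raised Ikzf1 and Tcf3. By edgeR's quasi-likelihood test with Benjamini-Hochberg adjustment over 15879 genes, 3 of the 8 tested genes fell and 2 rose, and 3 did not pass the threshold of 0.05. Over all genes, 56.8% were called in this comparison, 28.7% lower and 28.2% higher, so the number of calls among the 8 is close to the share among all genes. The median log2 fold change of the 8 was -1.23, against -0.014 over all genes, a median that the scaling holds near 0. In Jak2V617F LT-HSCs, 4 of the 8 fell (Flt3, Notch1, Satb1 and Dntt) and 1 rose (Tcf3), against 44% of all genes called, 22.3% lower and 21.7% higher, and the median was -1.37, against -0.01 over all genes. Both medians include genes that were not called, among them Rag1, whose change in Jak2V617F cells rested largely on vehicle mouse 4, as given below.

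**Figure D1:**
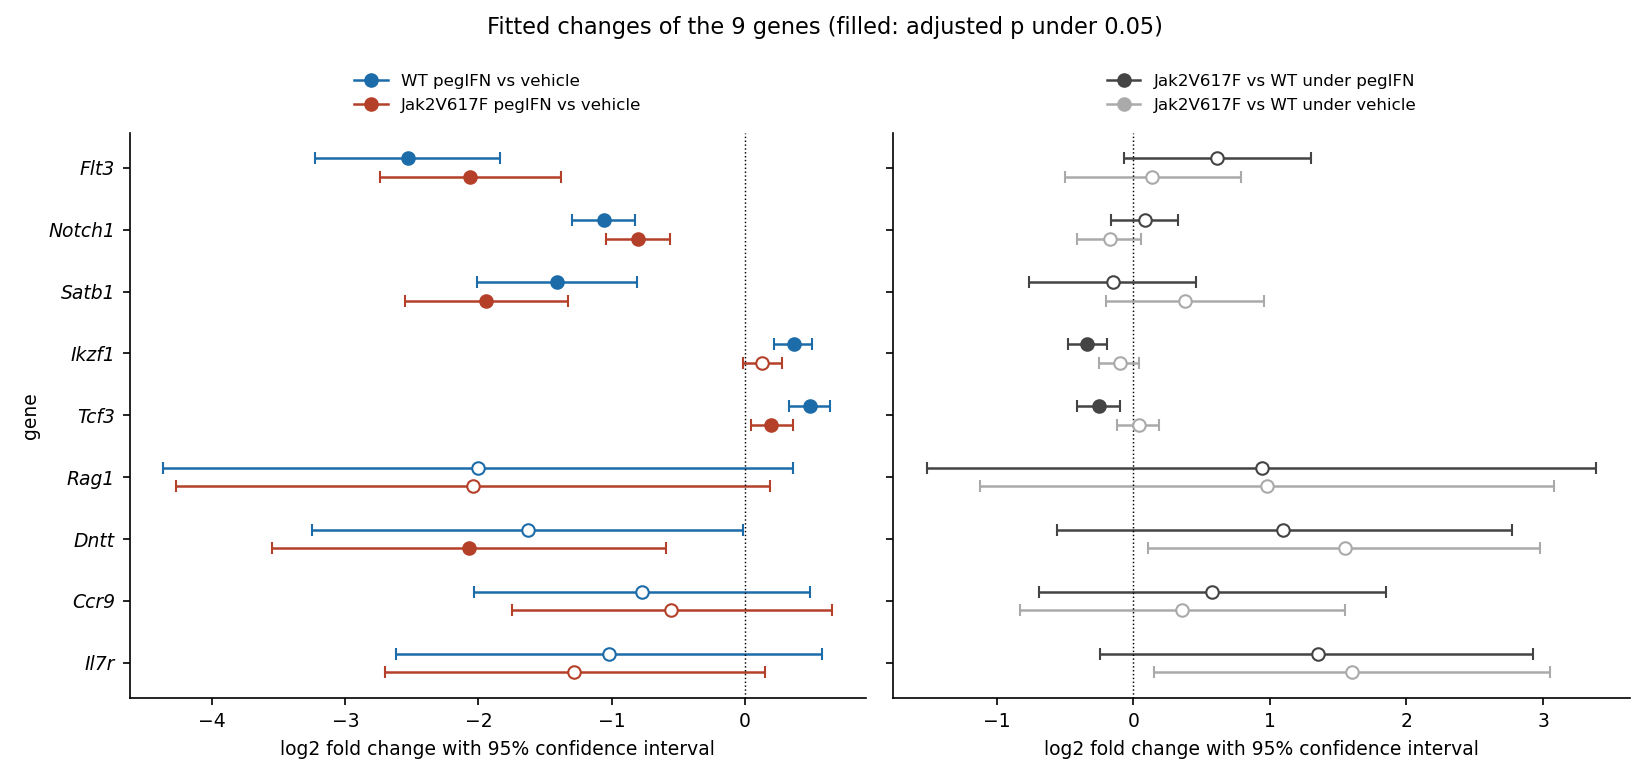
Fitted log2 fold changes (horizontal axis) of the 9 genes (vertical axis) with 95% confidence intervals, for pegIFN against vehicle in each genotype (left) and Jak2V617F against WT under each treatment (right). Filled points passed an adjusted p of 0.05; Il7r is from a fit without the count filter. Flt3, Notch1 and Satb1 lie left of 0 in both genotypes, and the intervals of Rag1, Dntt, Ccr9 and Il7r are the widest.

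Flt3 encodes the receptor tyrosine kinase for Flt3 ligand, whose appearance separates multipotent progenitors from LT-HSCs. In WT cells it had 5.02, 5.37 and 7.62 CPM (lowest, median and highest of 6 libraries) under pegIFN, against 14.8, 28.6 and 52.6 CPM under vehicle. No pegIFN library reached the lowest vehicle library, and the vehicle libraries differed among themselves far more than the pegIFN ones. The log2 fold change was -2.53 ± 0.34 (SE; 95% confidence interval -3.23 to -1.84; adjusted p = 1.9e-06), a level 0.173 times that of vehicle.

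In Jak2V617F cells Flt3 had 4.98, 7.88 and 14.5 CPM under pegIFN, against 14.5, 36.0 and 61.6 CPM under vehicle. The highest pegIFN library and the lowest vehicle library, both replicate 3, were level to 3 digits, without crossing. The log2 fold change was -2.06 ± 0.33 (adjusted p = 4.3e-05). Flt3 had the largest called fall of the 9 in WT cells, and in Jak2V617F cells its fall was of the same size as that of Dntt, described below. A difference between the genotypes in the fall of Flt3 was not detected (interaction 0.47 ± 0.45, adjusted p = 0.79, 95% confidence interval -0.47 to 1.41).

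Notch1 encodes a receptor that, once cleaved, acts in the nucleus with Rbpj and directs progenitors to the T lineage. It had 18.3, 20.8 and 24.2 CPM in WT pegIFN libraries, against 38.5, 43.7 and 49.4 CPM in WT vehicle libraries. In Jak2V617F cells the values were 16.4, 22.1 and 28.5 CPM under pegIFN, against 30.7, 38.0 and 45.8 CPM under vehicle. Libraries of the 2 treatments did not overlap in either genotype, and of the 3 receptors or regulators that fell in both genotypes this one varied least within groups. The log2 fold change was -1.06 ± 0.12 in WT (adjusted p = 8.0e-08) and -0.80 ± 0.12 in Jak2V617F cells (adjusted p = 1.0e-05). Notch1 shares 1068 exonic bases with the antisense gene 0610009E02Rik, which had 399 counts over all libraries, against 23580 for Notch1.

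Satb1 encodes a chromatin organiser that promotes lymphoid fate in stem cells. It had 1.65, 2.42 and 2.84 CPM in WT pegIFN libraries, against 3.61, 5.86 and 9.26 CPM in WT vehicle libraries. In Jak2V617F cells it had 1.32, 2.02 and 2.62 CPM under pegIFN, against 3.68, 6.53 and 14.8 CPM under vehicle. The pegIFN libraries lay below every vehicle library in both genotypes, and the vehicle libraries were spread more widely. The log2 fold change was -1.41 ± 0.29 in WT (adjusted p = 2.4e-04) and -1.94 ± 0.30 in Jak2V617F cells (adjusted p = 1.8e-05).

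Ikzf1 encodes Ikaros, the zinc finger factor required for lymphoid development, and it went the other way. WT cells had 251, 295 and 337 CPM under pegIFN, against 211, 231 and 240 CPM under vehicle, with no overlap. Ikzf1 rose by 0.37 ± 0.07 on the log2 scale (adjusted p = 1.1e-04), a level 1.29 times that of vehicle. Jak2V617F cells had 215, 229 and 264 CPM under pegIFN, against 173, 222 and 228 CPM under vehicle, and here the groups overlapped. Their log2 fold change of 0.13 ± 0.07 did not pass the threshold (adjusted p = 0.13).

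Tcf3 encodes the E proteins E12 and E47, basic helix-loop-helix factors that start B-lineage transcription. WT cells had 221, 273 and 315 CPM under pegIFN, against 183, 193 and 216 CPM under vehicle, without overlap. Tcf3 rose by 0.49 ± 0.08 on the log2 scale (adjusted p = 7.7e-06). Jak2V617F cells had 195, 224 and 266 CPM under pegIFN, against 197, 200 and 209 CPM under vehicle. The vehicle libraries lay within the spread of the pegIFN ones, of which replicates 2 and 5 were the highest. The rise of 0.20 ± 0.08 passed the threshold (adjusted p = 0.034), and the call was lost with upper-quartile scaling (0.14, adjusted p = 0.13), with a filter of 1 CPM in 12 libraries (0.18, adjusted p = 0.051) and without the mice of both libraries that stood apart (0.23, adjusted p = 0.058). It was also lost without Jak2V617F pegIFN replicate 2 (0.16) or 5 (0.16), or Jak2V617F vehicle replicate 1, 2, 3 or 5 (0.20 each), at adjusted p-values between 0.0525 and 0.11.

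The groups did not overlap for 3 falls and 2 rises in WT cells, against 14.8% of all tested genes that were lower and 15.1% that were higher without overlap. In Jak2V617F cells that held for 3 falls and no rise, against 8.58% lower and 9.81% higher. Upper-quartile scaling moved the median of all genes to -0.096 in WT and -0.068 in Jak2V617F cells and turned the calls to 3495 higher and 5400 lower in WT, against 4474 and 4553, and to 2678 and 4223 in Jak2V617F cells, against 3446 and 3545. Under that scaling the WT log2 fold changes were 0.29 ± 0.08 for Ikzf1 (adjusted p = 0.0024) and 0.40 ± 0.07 for Tcf3 (adjusted p = 6.9e-05).

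**Figure D2:**
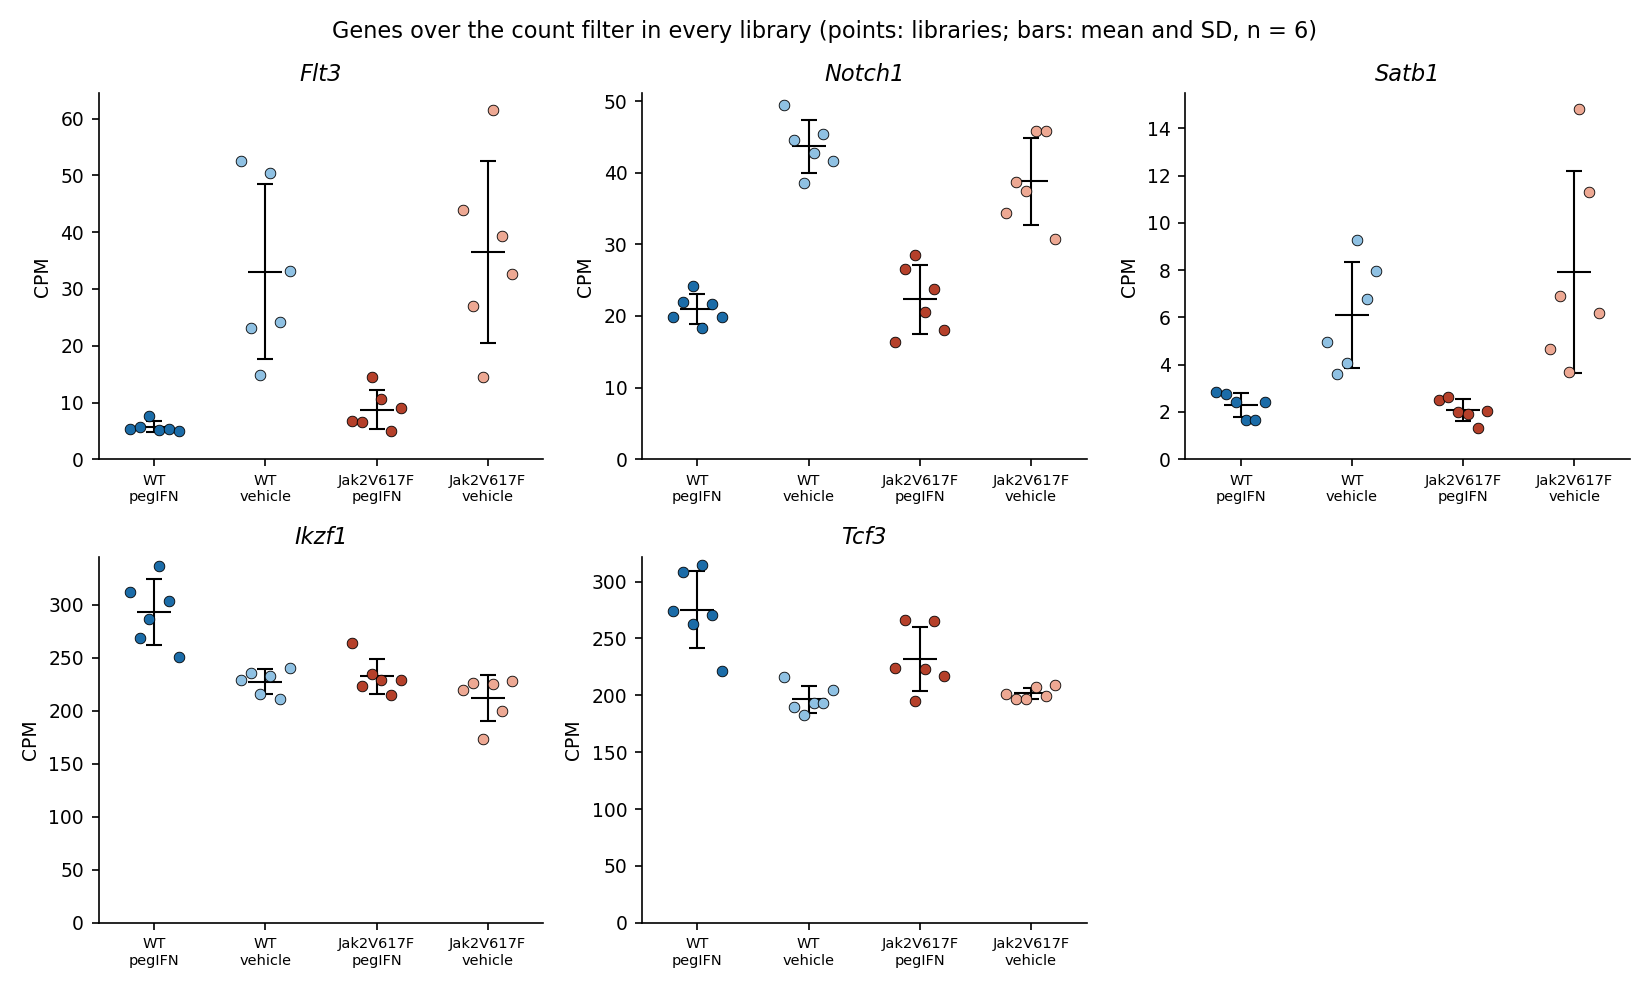
CPM (vertical axis, from 0) of the 5 genes over the count filter in every library, by group (horizontal axis); points are libraries and bars the mean and SD of 6. For Flt3, Notch1 and Satb1 each pegIFN group lies below its vehicle group, and the WT pegIFN group has the highest mean for Ikzf1 (293 CPM) and for Tcf3 (275 CPM).

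The lymphoid enzymes Dntt and Rag1 and the receptors Ccr9 and Il7r were at or near the limit of detection, where 3 counts correspond to 0.0762 to 0.12 CPM. Dntt, the terminal transferase that adds bases at V(D)J junctions, had 0, 0.113 and 0.33 CPM in WT pegIFN libraries, against 0.0713, 0.306 and 1.2 CPM in WT vehicle libraries. In Jak2V617F cells it had 0, 0.32 and 0.701 CPM under pegIFN, against 0.431, 0.894 and 3.1 CPM under vehicle, where it reached its highest level of the 4 groups. The groups overlapped in both genotypes. The log2 fold change was -1.63 ± 0.79 in WT (adjusted p = 0.081) and -2.07 ± 0.72 in Jak2V617F cells (adjusted p = 0.022).

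The fall of Dntt in Jak2V617F cells rested on 63 counts under pegIFN and 251 under vehicle, of which vehicle replicates 4 and 5 gave 89 and 83. The call was lost without vehicle replicate 4 (-1.68, adjusted p = 0.07), without vehicle replicate 5 (-1.79, adjusted p = 0.058), without pegIFN replicate 5 (-1.92, adjusted p = 0.0513), without vehicle mouse 4 in both genotypes (-1.69, adjusted p = 0.066) and without the mice of both libraries that stood apart (-1.57, adjusted p = 0.12). In WT cells it was gained with DESeq2 (-1.70, adjusted p = 0.0499), which called 57.8% of all genes. An exact two-sided permutation test of the log2 CPM over the 12 Jak2V617F libraries gave a difference of -1.93 and p = 0.019, where 0.0022 is the smallest p that it can give.

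Rag1, the catalytic subunit of the V(D)J recombinase, had 0.0325, 0.0986 and 0.664 CPM in WT pegIFN libraries, against 0, 0.744 and 2.01 CPM in WT vehicle libraries. In Jak2V617F cells it had 0, 0.255 and 1.05 CPM under pegIFN, against 0, 0.285 and 7.8 CPM under vehicle. The highest value of both vehicle groups came from replicate 4, with 77 counts in WT and 224 in Jak2V617F cells. The fitted level under pegIFN was 0.249 times that of vehicle in WT (95% confidence interval -4.37 to 0.36 on the log2 scale, adjusted p = 0.14). In Jak2V617F cells the log2 fold change was -2.04 ± 1.08 (adjusted p = 0.13), and it came to -0.03 without vehicle mouse 4 and 0.24 without the mice of both libraries that stood apart. Rag1 overlaps B230118H07Rik by 80 exonic bases on the same strand, and that gene had 11859 counts over all libraries, against 560 for Rag1.

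Ccr9 encodes the receptor for Ccl25 that guides progenitors to the thymus. It had 0.0325, 0.157 and 0.381 CPM in WT pegIFN libraries, against 0.249, 0.327 and 0.401 CPM in WT vehicle libraries, and 0, 0.249 and 0.593 CPM in Jak2V617F pegIFN libraries, against 0.0994, 0.349 and 0.82 CPM in Jak2V617F vehicle libraries. All groups overlapped. Its log2 fold changes were -0.77 ± 0.61 in WT (adjusted p = 0.29) and -0.55 ± 0.59 in Jak2V617F cells (adjusted p = 0.47). Of its 10260 exonic bases, 1932 are shared with AC165425.1 on the other strand, which is not among the overlapping genes that have counts here. With Gm17200 on the same strand, Ccr9 shares 269 exonic bases. Gm17200 had 194 counts over all libraries, against 233 for Ccr9, so counts could be divided between them.

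Il7r, the interleukin 7 receptor alpha chain on which B and T progenitors depend, had only 17 counts over the 6 WT pegIFN libraries and 34 over the WT vehicle libraries, and 41 over the Jak2V617F pegIFN and 94 over the Jak2V617F vehicle libraries. Its highest levels, 1.25 and 1.05 CPM, were in Jak2V617F vehicle replicates 4 and 5. In a fit without the count filter the log2 fold changes were -1.02 ± 0.78 in WT (adjusted p = 0.34) and -1.28 ± 0.70 in Jak2V617F cells (adjusted p = 0.19). A change of Rag1, Ccr9 or Il7r was not detected by these tests, at these counts and this spread between libraries.

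**Figure D3:**
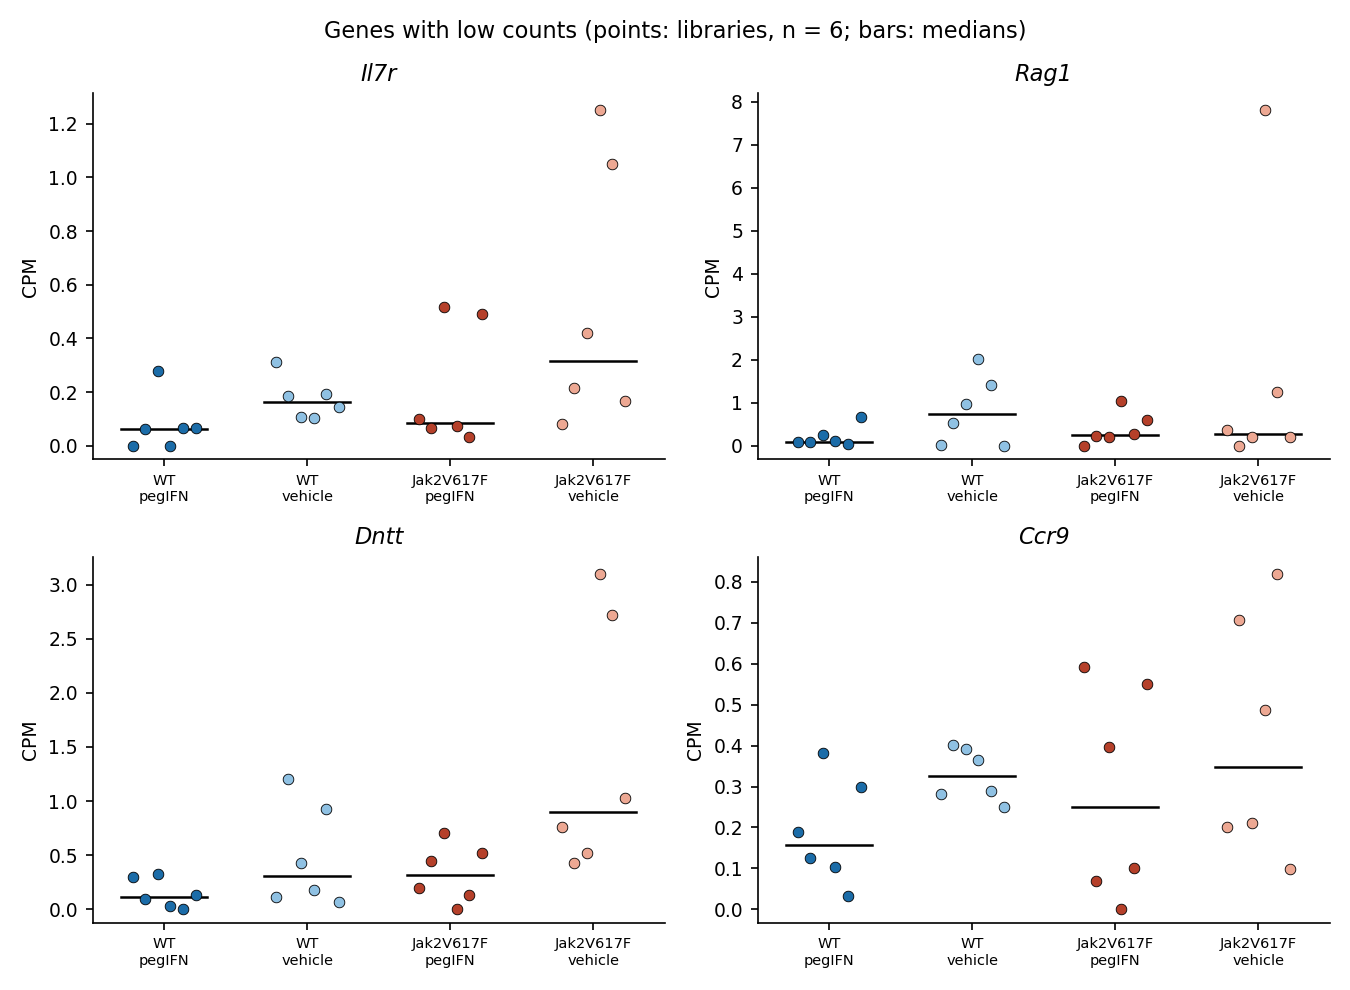
CPM (vertical axis) of the 4 genes with low counts by group (horizontal axis); points are libraries and bars the medians of 6. Jak2V617F vehicle replicate 4 lies at 7.8 CPM for Rag1, far from the other libraries, and Dntt and Il7r are highest in Jak2V617F vehicle replicates 4 and 5.

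The genotypes were compared under each treatment. Under pegIFN, 2 of the 8 tested genes were lower in Jak2V617F than in WT cells and none was higher, against 8.59% of all genes called, 4.43% lower and 4.16% higher. Over all genes, 415 were lower and 238 higher without the libraries that stood apart, against 703 and 661 with them. Ikzf1 averaged 232 ± 16.8 CPM in Jak2V617F pegIFN libraries, against 293 ± 30.7 CPM in WT pegIFN libraries (SD, n = 6 each), and Tcf3 averaged 232 ± 28.3 CPM in Jak2V617F pegIFN libraries, against 275 ± 33.7 CPM in WT pegIFN libraries. The groups overlapped, where 1.81% of all genes were lower without overlap, but both genes were lower in the Jak2V617F library of 6 of 6 mice. The log2 fold changes were -0.34 ± 0.07 for Ikzf1 (adjusted p = 0.0055) and -0.25 ± 0.08 for Tcf3 (adjusted p = 0.04). Myeloid markers ran with this comparison: 5 of 11 were higher in Jak2V617F pegIFN cells, among them Prtn3, Ctsg and Elane by log2 fold changes of 1.27 ± 0.27, 2.02 ± 0.49 and 1.96 ± 0.52, and their summed level was between 961 and 1536 CPM in Jak2V617F pegIFN, against 241 and 694 CPM in WT pegIFN libraries. That count was 3 without WT pegIFN replicate 4 or 5 or Jak2V617F pegIFN replicate 1 or 6, and the part of these genes' cells in the differences was not tested.

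The call for Tcf3 was lost with only the groups compared in the fit (-0.26, adjusted p = 0.083), without the libraries that stood apart (-0.24, adjusted p = 0.089) and without their mice (-0.25, adjusted p = 0.13). It was also lost without WT pegIFN replicate 1, 2, 4 or 5 or Jak2V617F pegIFN replicate 1, 3, 4 or 6, with log2 fold changes between -0.26 and -0.21. Ikzf1 stayed called in every alternative run. With the mouse as a block, both were called (adjusted p = 2.7e-04 for Ikzf1 and 0.0032 for Tcf3), and Flt3 was called higher in Jak2V617F cells by 0.56 ± 0.15 (adjusted p = 0.016), against 24.6% of all genes called, 13.3% higher and 11.3% lower. Without the block the difference of Flt3 was 0.61 ± 0.33 (adjusted p = 0.26), and it was higher in the Jak2V617F library of 5 of 6 mice.

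Under vehicle, none of the 8 was called by edgeR's quasi-likelihood test, against 12.7% of all genes, with 8.48% higher and 4.23% lower in Jak2V617F cells. Over all genes, 701 were higher and 298 lower without the libraries that stood apart, against 1346 and 672 with them. Of the 8, Dntt alone had an unadjusted p below 0.05. None had such a p without the libraries that stood apart, without their mice or without vehicle mouse 4. Ikzf1 was lower in the Jak2V617F library of 6 of 6 vehicle mice too, with a log2 fold change of -0.10 ± 0.07 (adjusted p = 0.35). Dntt averaged 1.43 ± 1.17 CPM in Jak2V617F vehicle libraries, against 0.488 ± 0.472 CPM in WT vehicle libraries, a log2 fold change of 1.55 ± 0.69 (adjusted p = 0.14). DESeq2 called none, giving Dntt no adjusted p, and limma-voom with mice as random effects called Dntt (1.77 ± 0.59, adjusted p = 0.023), against 33.4% of all genes in that fit. With the mouse as a block in edgeR none was called, against 31.1% of all genes. Il7r, in the fit without the filter, had a log2 fold change of 1.60 ± 0.71 (adjusted p = 0.19).

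Whether pegIFN acted differently in the 2 genotypes was tested by the interaction. None of the 8 genes, and 0% of all genes, passed by edgeR's quasi-likelihood test without a block, with 1338 of all genes at an unadjusted p below 0.05, while Ikzf1 (-0.23 ± 0.10, adjusted p = 0.55) and Tcf3 (-0.29 ± 0.11, adjusted p = 0.51) had unadjusted p-values of 0.028 and 0.013. Neither DESeq2 nor limma-voom with mice as random effects called any of the 8. With the mouse as a block, 3.33% of all genes (1.28% higher and 2.05% lower) and 1 of the 8 were called: Tcf3, with a smaller rise in Jak2V617F than in WT cells (-0.29 ± 0.08, adjusted p = 0.0499). Ikzf1 did not pass there (-0.23 ± 0.07, adjusted p = 0.09). Taken alone, the Jak2V617F minus WT difference per mouse, set between 6 pegIFN and 6 vehicle mice, gave unadjusted two-sided exact permutation p-values of 0.0087 for Tcf3 and 0.017 for Ikzf1. Because the fits across all genes did not call Ikzf1, its rise, called in WT and not in Jak2V617F cells, is not shown to differ between them.

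**Figure D4:**
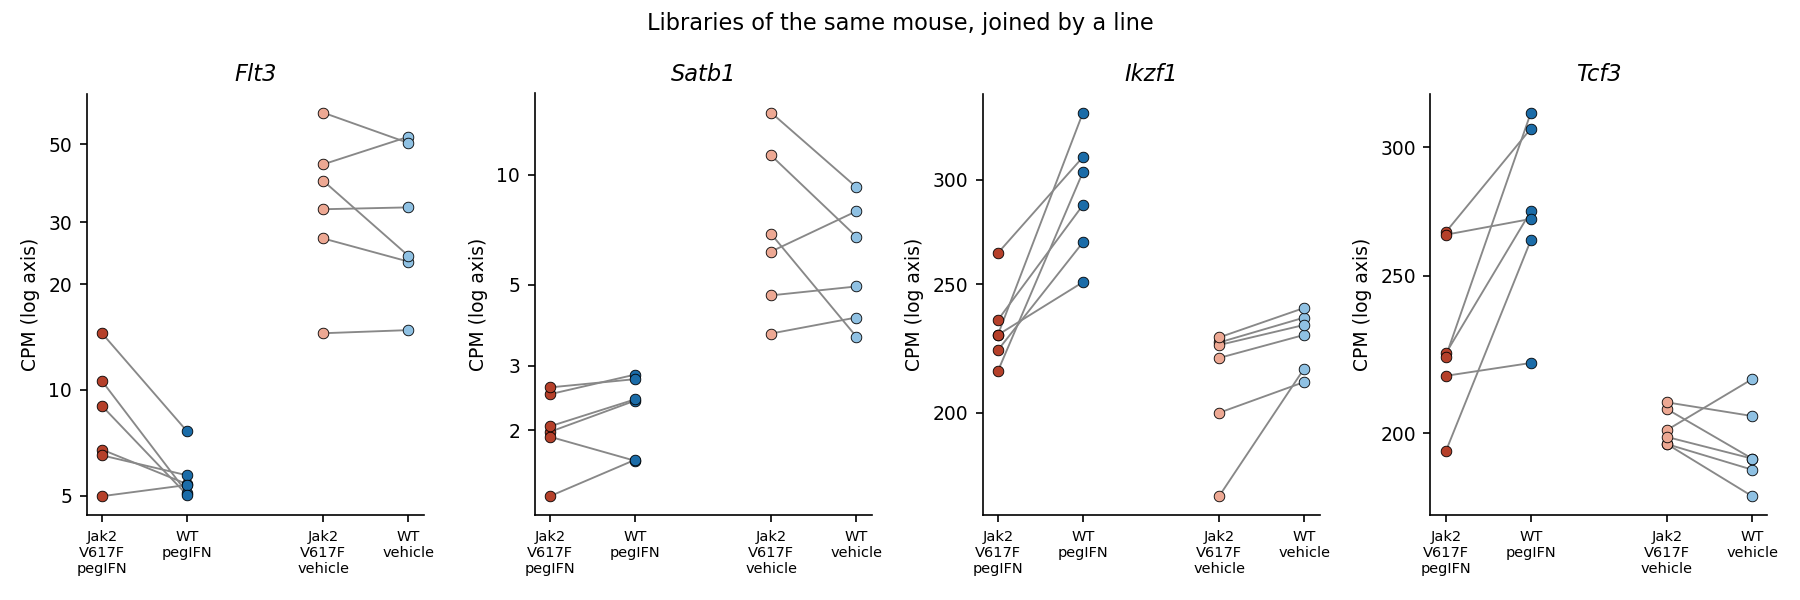
CPM on a log axis (vertical) of Flt3, Satb1, Ikzf1 and Tcf3, with the Jak2V617F library left of the WT library of the same mouse, joined by a line, for 6 pegIFN and 6 vehicle mice. Ikzf1 and Tcf3 are lower in the Jak2V617F library of all 6 pegIFN mice. Over all 12 mice, with group means removed, the genotypes correlated for Flt3 (r = 0.77) and Satb1 (r = 0.72), but the order of mice was not the same in both.

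Several of the genes varied by mouse. After removal of the group means, the log2 CPM of the Jak2V617F and WT libraries of the same mouse had a Pearson r of 0.77 for Flt3, 0.72 for Satb1, 0.61 for Ccr9 and 0.51 for Notch1 over the 12 mice, whose paired libraries shared a recipient. Without the mice of both libraries that stood apart, it was 0.70 for Flt3, 0.55 for Satb1, 0.62 for Ccr9 and 0.55 for Notch1 over 10 mice. Over the 6 vehicle mice alone it was 0.89 for Flt3 and 0.69 for Satb1, but 0.06 for Notch1 and -0.59 for Il7r. Over all 12 mice it was 0.42 for Ikzf1, 0.39 for Tcf3, 0.22 for Dntt and 0.18 for Il7r. No r was taken over the pegIFN mice alone. There, Flt3 of replicate 4 held rank 2 from the highest in Jak2V617F and rank 5 in WT cells. Among vehicle mice, Flt3 was lowest in replicate 3 in both genotypes, with 14.5 CPM in Jak2V617F and 14.8 CPM in WT cells. Replicate 4 had 61.6 CPM in Jak2V617F and 50.5 CPM in WT cells, and this WT library is the one with the Y-linked level of Jak2V617F libraries. Jak2V617F vehicle replicate 4 was the highest library of its group for 6 of the 9 genes. Without both libraries of that mouse, an alternative chosen after the data were seen, the log2 fold change of Flt3 was -2.37 ± 0.32 in WT and -1.85 ± 0.31 in Jak2V617F cells, and that of Satb1 -1.25 ± 0.26 and -1.66 ± 0.26 in the same genotypes, all still called.

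Among the genes themselves, with group means removed, the closest pairs over 24 libraries were Flt3 with Satb1, Dntt with Ccr9 and Il7r with Ccr9, each with a Pearson r of 0.55. Of the 12258 genes with a mean log2 CPM of at least 1, those closest to Flt3 over the 24 libraries were 9030619P08Rik (0.87), Coro7 (0.82) and Traf3ip3 (0.80). Those closest to Notch1 were Bcl9l (0.86), Fam110a (0.85) and Erf (0.79), to Satb1 Fam110b (0.82), Maf (0.80) and Map1lc3b (0.80), and to Ikzf1 Angptl4 (0.83), Cd163 (0.82) and Fam129b (0.75). Tcf3 was closest to Tkt (0.93) and Pgls (0.89). For the low genes the closest were Pip5k1b for Rag1 (0.75), Vti1a for Dntt (0.76) and Gm12966 for Ccr9 (0.74). These libraries share mice and depth, and the correlations are a description.

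The partners of these genes were described from lists of the same pathways, without the 9 genes themselves. Of 23 tested Notch pathway genes, 8 fell and 4 rose in WT pegIFN cells, and 8 fell and 2 rose in Jak2V617F pegIFN cells, with medians of -0.03 and -0.02. These shares are close to the 56.8% of all genes called in WT and 44% in Jak2V617F cells, against which each list below is to be read, and counts near them say nothing particular of a list. Nrarp, a target and feedback inhibitor of Notch signalling, fell by 1.24 ± 0.21 on the log2 scale in WT (adjusted p = 2.7e-05) and by 1.19 ± 0.21 in Jak2V617F cells (adjusted p = 1.0e-04). The coactivator Maml2 fell by 1.18 ± 0.11 in WT and by 0.83 ± 0.11 in Jak2V617F cells, and the fringe glycosyltransferase Mfng by 0.76 ± 0.08 in WT. Psen2, a subunit of the protease that releases the Notch intracellular domain, rose by 0.47 ± 0.08 in both.

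Of 14 genes of Flt3 and interleukin 7 receptor signalling, 7 fell and 2 rose in WT pegIFN cells and 3 fell and 1 rose in Jak2V617F pegIFN cells. Jak3, the kinase of the common gamma chain, fell by 0.81 ± 0.09 in WT and by 0.67 ± 0.09 in Jak2V617F cells, and the receptor kinase Kit by 0.87 ± 0.14 in both. Of 9 E and Id protein genes and their partners, 5 fell and 1 rose in WT and 4 fell in Jak2V617F cells, opposite in direction to Tcf3. Lyl1 fell by 0.72 ± 0.09 in WT and by 0.40 ± 0.09 in Jak2V617F cells, and the E protein gene Tcf4 by 0.35 ± 0.06 and 0.27 ± 0.06 in the same genotypes. Id3, an inhibitor of E proteins, fell by 1.90 ± 0.51 in Jak2V617F cells (adjusted p = 0.0043).

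Of 9 Ikaros family genes and chromatin partners, 3 fell and 3 rose in WT and 2 fell and 3 rose in Jak2V617F cells. Ikzf2 (Helios) fell by 0.64 ± 0.14 in WT and by 0.74 ± 0.14 in Jak2V617F cells, and the repressor subunit Mta2 rose by 0.36 ± 0.06 and 0.19 ± 0.06 in the same genotypes. Of 12 V(D)J recombination and end-joining genes, 2 fell and 3 rose in WT and 2 rose in Jak2V617F cells, with Polm, a polymerase of end joining, higher by 1.10 ± 0.15 in WT and 0.52 ± 0.15 in Jak2V617F cells. Of 9 thymus-homing genes, 5 fell and 2 rose in WT and 3 fell and 1 rose in Jak2V617F cells. The 4 calls in Jak2V617F cells became 2 without Jak2V617F pegIFN replicate 1 or 4, or Jak2V617F vehicle replicate 1 or 3. S1pr1, which guides egress into blood, fell by 0.58 ± 0.11 in WT and by 0.90 ± 0.11 in Jak2V617F cells.

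Of 17 lymphoid transcription factors, 7 fell and 3 rose in WT and 7 fell and 1 rose in Jak2V617F cells. Ets1 fell by 1.04 ± 0.13 in WT and by 0.95 ± 0.13 in Jak2V617F cells, and Foxo1 by 0.63 ± 0.08 and 0.48 ± 0.08 in the same genotypes, and Irf4 by 2.30 ± 0.49 in WT. Without the mice of both libraries that stood apart, 4 of the 8 calls in Jak2V617F cells were left, and 2 of the 4 among the E and Id protein genes. Of 10 surface genes of lymphoid-primed progenitors, 7 fell in WT and 5 in Jak2V617F cells and none rose, with medians of -1.06 and -0.50. Cd34 fell by 1.40 ± 0.17 in WT and by 1.02 ± 0.16 in Jak2V617F cells, and Cd27, a receptor of the tumour necrosis factor family, by 1.36 ± 0.16 and 1.14 ± 0.16. The lists were chosen with earlier results of these data known.

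**Figure D5:**
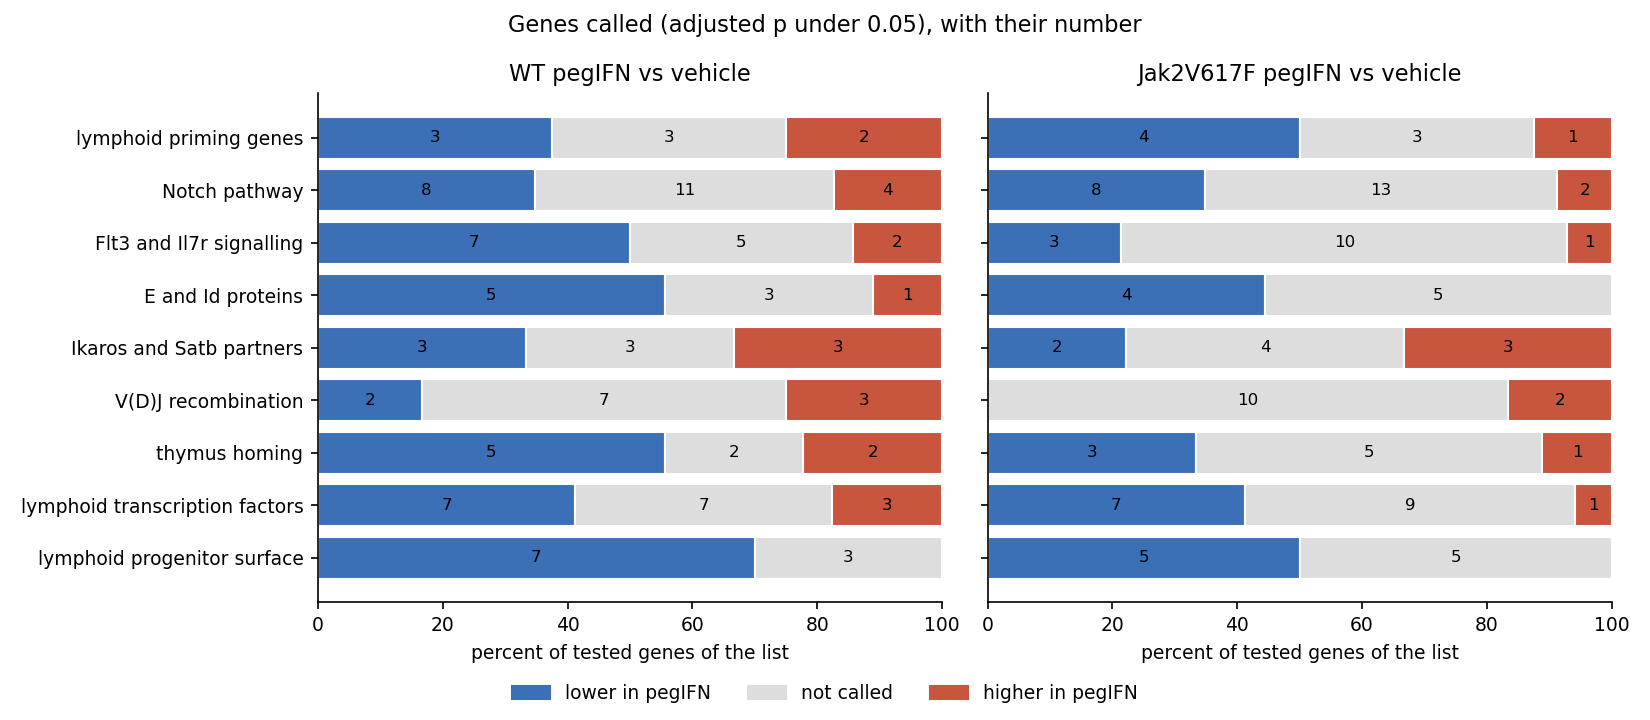
Share of tested genes of each list (horizontal axis, percent, with the number of genes in each segment) that were lower, not called or higher in pegIFN than in vehicle libraries, for WT (left) and Jak2V617F cells (right). The lymphoid progenitor surface genes include 7 lower in WT and 5 lower in Jak2V617F cells and none higher.

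Markers of other cells moved with these results. Of 6 tested mature B cell genes, 5 fell in WT pegIFN and 4 in Jak2V617F pegIFN cells; their summed level was between 70.4 and 146 CPM in WT pegIFN, against 137 and 755 CPM in WT vehicle libraries, and between 68.8 and 283 CPM in Jak2V617F pegIFN, against 151 and 566 CPM in Jak2V617F vehicle libraries. Of 7 tested early B cell genes, 3 fell in WT and 1 in Jak2V617F cells, with sums between 10.6 and 15.1 CPM in WT pegIFN, against 15.8 and 25.6 CPM in WT vehicle libraries, and between 12.5 and 18.6 CPM in Jak2V617F pegIFN, against 12.6 and 30.4 CPM in Jak2V617F vehicle libraries. The single early B cell call in Jak2V617F cells became 0 without Jak2V617F pegIFN replicate 1, 2 or 5 or vehicle replicate 4, and 2 or 3 without WT vehicle replicate 1 or 6, Jak2V617F pegIFN replicate 3 or 4, or Jak2V617F vehicle replicate 1, 2, 3 or 6.

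Of 5 tested plasmacytoid dendritic cell genes, 2 fell in each genotype, with sums between 37.6 and 60.5 CPM in WT pegIFN, against 73.9 and 140 CPM in WT vehicle libraries, and between 37.3 and 71.1 CPM in Jak2V617F pegIFN, against 68.5 and 102 CPM in Jak2V617F vehicle libraries. This list includes Ccr9 of the 9 genes, which was not called in either genotype. It shares Ly6d with the lymphoid progenitor surface genes. Klk1 of that list never exceeded 3 counts, and the WT count became 1 without WT pegIFN replicate 1, 2, 4 or 5 or WT vehicle replicate 4 or 5. Of 3 tested T cell genes, 1 fell in WT and none in Jak2V617F cells, and Cd3e stayed at or below 0.335 CPM. The WT count became 0 without WT pegIFN replicate 1 or 4 or WT vehicle replicate 2, and the Jak2V617F count 1 without Jak2V617F pegIFN replicate 4. Summed T cell genes were between 5.52 and 8.59 CPM in WT pegIFN, against 6.91 and 8.57 CPM in WT vehicle libraries, and between 6.21 and 10.4 CPM in Jak2V617F pegIFN, against 6.13 and 10.1 CPM in Jak2V617F vehicle libraries. Within vehicle mice, the mature B cell sum was highest in replicate 5, at 566 CPM in Jak2V617F and 755 CPM in WT cells, and lowest in WT replicate 4, at 137 CPM, and Jak2V617F replicate 4, at 151 CPM, the mouse with the highest Flt3 of all Jak2V617F libraries. In the same mouse other sums were the highest of their vehicle groups, at 30.4 CPM in Jak2V617F and 25.6 CPM in WT cells for early B cell genes, 102 CPM in Jak2V617F and 140 CPM in WT cells for plasmacytoid dendritic cell genes, and 1010 CPM in Jak2V617F and 1199 CPM in WT cells for lymphoid progenitor surface genes. High sums there were not limited to lymphoid lists. Long-term stem cell, sorting gate and erythroid sums were also highest, at 1271, 1578 and 681 CPM in WT cells. In Jak2V617F cells they were 985, 1087 and 447 CPM. The myeloid sum was highest in that mouse in Jak2V617F cells only, at 2226 CPM. Its megakaryocyte sum was the lowest of WT vehicle libraries, at 1007 CPM.

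Erythroid and natural killer cell markers moved as well. Of 9 erythroid genes, 4 rose and 4 fell in each genotype under pegIFN, with sums between 511 and 895 CPM in WT pegIFN, against 224 and 681 CPM in WT vehicle libraries, and between 224 and 539 CPM in Jak2V617F pegIFN, against 226 and 447 CPM in Jak2V617F vehicle libraries. Of 2 tested natural killer cell genes, Nkg7 rose and Klrb1c fell in both genotypes, Klrb1c by 3.97 ± 0.45 on the log2 scale in WT cells; sums of that list were between 65.6 and 103 CPM in WT pegIFN, against 36.7 and 81.3 CPM in WT vehicle libraries, and between 89.2 and 143 CPM in Jak2V617F pegIFN, against 59.2 and 78.3 CPM in Jak2V617F vehicle libraries. The part of these cells in the changes of the 9 genes was not tested.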

How the data were processed

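RNA of sorted LT-HSCs was sequenced as single reads on a NextSeq 550, per the labels. The deposited table holds expected counts per gene, for which the submitters' processing notes name RSEM 1.2.30, STAR 2.5.2a, cutadapt 1.11 and the build GRCm38; the annotation release and the use of strand are not given in the sources used here. RSEM divides reads shared by several genes, so 16.8% of the values were not whole, and they were rounded for the tests. Without strand, reads of overlapping genes on opposite strands may be mixed.

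The 9 genes and all lists were chosen with earlier results of these data known. All tests were fitted on the whole table: edgeR 4.0.16 in R 4.3.3 with filterByExpr (minimum count 10), which kept 15879 genes and 99.95% of counts, TMM factors, a model of the 4 group means over all 24 libraries, and its robust quasi-likelihood test. P-values were adjusted by Benjamini-Hochberg over the tested genes and called at 0.05. In all, 5 contrasts were taken: the treatment in either genotype, the genotype under either treatment, and their interaction. Log2 CPM used a prior count of 2. Dntt, Rag1 and Ccr9 passed the filter with between 10 and 13 of 24 libraries over its cutoff of 0.323 CPM. The fits were checked on simulated data with few changed genes and no mouse effect. That check does not cover changes in a large share of genes or paired libraries.

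All 9 genes are named in each comparison; of other lists, genes come from the up to 4 smallest p-values, and some genes that these rules select, likeness included, are not reported here. Cd3e and Klk1 were named for their marker role after their values were seen, likewise values of a gene in a genotype where the rule does not select it.

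Mice were read from the library numbers. The labels put both genotypes in each recipient; as a check, group-centred log2 CPM of same-numbered libraries correlated at 0.119 to 0.416 (median 0.284) in 12 pairs, 10 of which were highest with their own partner. The labels do not say otherwise which library came from which mouse, and p-values measure the spread between these libraries.

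Alternatives were RLE and upper-quartile factors, no filter, 1 CPM in 12 libraries, only the groups compared, the mouse or number as a replicate block, limma-voom (limma 3.58.1) with the mouse as a random block, DESeq2 1.42.0, exact permutation, each library left out, and fits without the libraries that stood apart or their mice; the fit without vehicle mouse 4 and the correlations over 10 mice were added after the data were seen. Promoters came from RefSeq.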

Additional observations from a re-analysis of the deposited data

Results flagged for a closer look

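In 36 groups of 6 libraries (9 genes in 4 groups), 4 held a library far from the others, where chance flags about 1 in 20. That rate may not hold at the low counts of Il7r and Rag1, and an excess over chance was not tested. In WT pegIFN replicate 3, Flt3 was at 7.62 CPM, with the others of its group between 5.02 and 5.71 CPM, and Il7r at 0.279 CPM, with the others between 0 and 0.0664 CPM. In WT pegIFN replicate 6, Rag1 was at 0.664 CPM, with the others between 0.0325 and 0.254 CPM. In Jak2V617F vehicle replicate 4, Rag1 was at 7.8 CPM, with the others between 0 and 1.25 CPM.

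The response of Tcf3 to pegIFN differed between genotypes in 1 of the fits: with the mouse as a block the interaction was -0.29 (edgeR quasi-likelihood test, adjusted p = 0.0499), and without the block it was also -0.29 (adjusted p = 0.51). Tcf3 was lower in the Jak2V617F library of 6 of 6 pegIFN mice and of 1 of 6 vehicle mice.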

How the results depend on the processing

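The number of called genes of the 8 stayed at 5 in WT cells when any 1 library was left out, and was between 3 and 5 in Jak2V617F cells, between 1 and 2 for Jak2V617F against WT under pegIFN, and 0 under vehicle and for the interaction. In Jak2V617F cells it was 3 with a filter of 1 CPM and without the mice of the libraries that stood apart; the first of these filters removes Dntt. For genotype under pegIFN it was 1 with only the groups compared, without the libraries that stood apart and without their mice; under vehicle it was 1 with limma-voom, and for the interaction 1 with the mouse as a block. The replicate block by number in the pegIFN comparisons, where a number links different mice, changed no call of the 9 genes. In the genotype comparisons and the interaction, the paired fit with the mouse as a block changed the calls of Flt3 and Tcf3 given above and no other of the 9.

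Falls of Flt3, Notch1 and Satb1 in both genotypes and rises of Ikzf1 and Tcf3 in WT cells were called in every alternative that tested them. No value that changed sign came from a called result. Rag1 came to 0.24 for pegIFN in Jak2V617F cells without the mice of the libraries that stood apart, to -0.52 and -0.53 for genotype under vehicle without those mice and without vehicle mouse 4, and for the interaction to 0.70 (mouse as a block), 0.52 (limma-voom), 1.56 (without those mice), 1.47 (without vehicle mouse 4) and 0.52 (permutation); the last also reached between -0.61 and 1.98 with single libraries left out, and its genotype difference between -1.04 and 1.49. Other interactions turned for Dntt (0.53 and 0.12 without those mice and without vehicle mouse 4), Il7r (0.03 without the libraries that stood apart, -0.52 to 0.79 with single libraries left out) and Ccr9 (-0.14 and -0.11 without those libraries and without their mice, -0.12 to 0.55 with single libraries left out). Genotype differences turned for Flt3 under vehicle (-0.08 to 0.33), Notch1 under pegIFN (-0.01 to 0.15) and the T cell gene Cd28 under vehicle (-0.04, -0.12 and -0.12 without those libraries, those mice and vehicle mouse 4, and -0.05 to 0.65) with single libraries left out. The cause was not tested.

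For Il7r, Rag1, Dntt and Ccr9, groups of 6 libraries held between 17 and 283 counts; the parts of depth and of spread between libraries in their missing calls were not separated. Genotype cannot be told apart from donor and donor sex.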
